A study of Mus musculus with 9 samples.

Results

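The 5 stable RAW-FoxQ1 clones, 7.1 to 7.5, were compared with one another, gene by gene. They are 5 of the 9 arrays of the series and were taken by their titles. All are derivatives of RAW-264.7, a murine monocyte/macrophage cell line, transfected with the mouse FoxQ1 coding fragment in the vector pEF6/V5-His, in which the promoter of the human elongation factor 1 alpha gene drives the insert. Each clone grew from a single cell under blasticidin S at 6 µg/ml, received no further treatment, and gave 1 total RNA sample on 1 Affymetrix mouse array. The sources do not say whether the clones trace back to separate transfection events. With 1 array per clone, a difference between clones includes the error of 1 culture, 1 extraction and 1 hybridization, and no value of a single clone could be tested. The values are log2 expression values, so a difference of 1 is a 2-fold difference. Of 16492 gene rows, 8197 (49.7%) had a mean above 7.5 over the 5 clones, a level next to the array median of 7.49, and these rows are the genes described here.

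A stable clone is the progeny of a single transfected cell, so clones of one line share their treatment but not their cell of origin. FoxQ1 is a forkhead box transcription factor, and RAW-264.7 is widely used as a model of the macrophage, a phagocyte that senses microbes through surface receptors and secretes cytokines. The line can also be driven to form osteoclast-like cells. The spread among clones that carry the same construct is the error against which any comparison of the construct is judged.

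Macrophage markers were present, though not each in every clone. Of 35 measured markers 28 had a mean above 7.5 over the clones, led by Lyz2, which encodes lysozyme, with 14.64, 14.66, 14.79, 14.66 and 14.51 in clones 7.1, 7.2, 7.3, 7.4 and 7.5. Csf1r, the receptor for the macrophage growth factor CSF-1, lay between 13.13 and 13.38, and Spi1, which encodes the lineage factor PU.1, between 10.93 and 11.33. Adgre1 and Cd36, also on this list, lay below 7.5 in clone 7.3, at 7.14 and 6.85. Only 1 of 13 lymphocyte markers (Cd3e, 7.56 to 7.77), 1 of 16 fibroblast and epithelial markers (Acta2, 7.42 to 7.97) and 0 of 7 erythroid and megakaryocyte markers passed a mean of 7.5. Mrc1, Marco and Mertk, which mark other macrophage states, stayed at or below 6.59 in each clone.

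Foxq1 itself had log2 values of 7.33, 7.27, 7.44, 7.39 and 7.40 in clones 7.1, 7.2, 7.3, 7.4 and 7.5. Its mean of 7.37 fell below the cutoff, and its range of 0.17 stood beside a median range of 0.13 over the 8295 rows at or below a mean of 7.5. The clones were therefore close together on this row. The part of the transcript that its probes read is unknown here, so the row does not show that transfected FoxQ1 was equal. For its TNFα assay the paper took the FoxQ1 clones that expressed FoxQ1 most, without naming them. The study also names Cldn11, Lsp1, Plxnc1 and Ccr2. Lsp1, which encodes an actin-binding protein of leukocytes, was the only one of these above the cutoff, with 9.65 in clone 7.1, against 8.98, 8.84, 9.11 and 9.25 in clones 7.2, 7.3, 7.4 and 7.5. Cldn11 lay between 6.20 and 6.33, Plxnc1 between 6.45 and 6.5, and Ccr2 between 6.44 and 6.57 in 4 clones and at 6.79 in clone 7.3.

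The control rows of the arrays were not level across the clones. The 24 rows for poly-A RNA added before labelling averaged 8.64 in clone 7.5 and between 8.12 and 8.26 in the other 4. The 18S ribosomal RNA rows averaged 12.8 in clone 7.5, 12.4 in clone 7.4 and 11.3 to 11.9 in the other 3. The transferrin receptor rows for the 3' end exceeded those for the 5' end by 1.68 in clone 7.3 and by 1.02 to 1.27 in the other 4, whereas the same difference for beta-actin was highest in clone 7.5, at 0.84, and 0.54 to 0.69 elsewhere. For pyruvate carboxylase this difference was lowest in clone 7.3, at 0.32, and 0.42 to 0.50 elsewhere. For Gapdh it was -0.03 in clone 7.3 and -0.05 to 0.10 elsewhere. The part of RNA quality or of labelling in the differences below was not tested.

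Most genes were steady. The SD over the 5 clones had a median of 0.113 over the 8197 genes, with a 5th percentile of 0.0414 and a 95th percentile of 0.333, and 6738 genes (82.2%) had a range, the highest clone minus the lowest, under 0.5. A range of at least 1 was reached by 267 genes (3.26% of those above the cutoff), of which 250 have a gene symbol and 17 do not, and a range of at least 2 by 41 genes (0.50%). The share with a range of at least 1 was 2.51% among genes with a mean of 7.5 to 8.5, and between 2.99% and 3.88% in the brighter classes. Without clone 7.3 the count of 267 was 93. Of the 8295 dimmer rows only 37 had such a range.

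**Figure D1:**
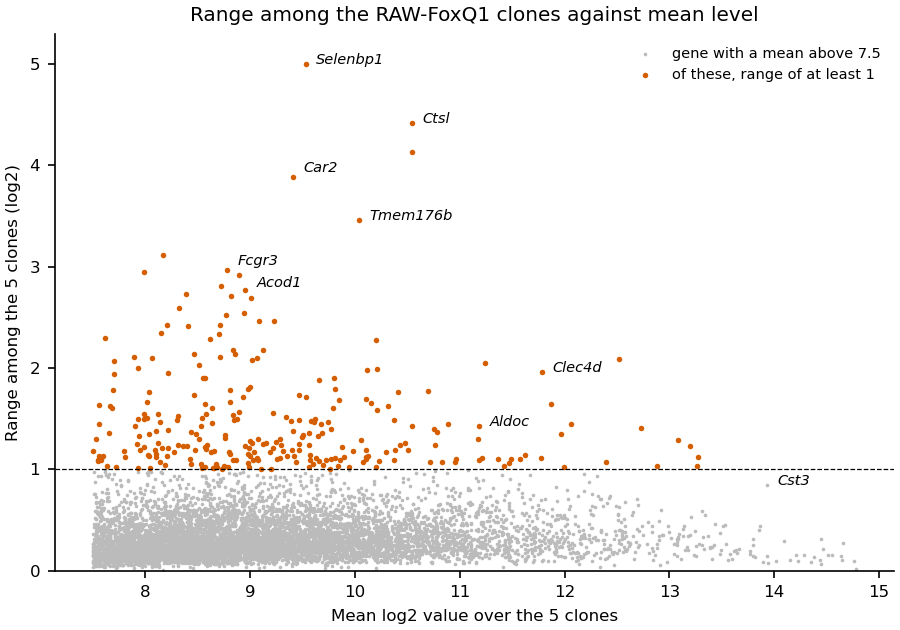
Range among the 5 RAW-FoxQ1 clones in log2 units (y axis) against the mean log2 value (x axis), 1 point per gene with a mean above 7.5; orange points are the 267 genes at or above the dashed line at 1. Wide ranges occurred at all levels, and Selenbp1, Ctsl and Car2 stood farthest up among the named genes.

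The gene with the largest SD was Selenbp1, which encodes a selenium-binding protein known in humans as a methanethiol oxidase. It had 6.79 in clone 7.3, against 11.79, 9.47, 10.18 and 9.42 in clones 7.1, 7.2, 7.4 and 7.5, an SD of 1.81 and a 32.0-fold range. Ctsl, which encodes the lysosomal protease cathepsin L, followed with 7.68 in clone 7.3, against 12.10, 12.06, 10.58 and 10.30 in clones 7.1, 7.2, 7.4 and 7.5. Its 4 high clones thus formed 2 pairs, 7.1 with 7.2 and 7.4 with 7.5. Car2, carbonic anhydrase 2, which supplies protons for bone resorption in osteoclasts, repeated this order with 7.08 in clone 7.3, against 10.92, 10.97, 9.07 and 8.99 in clones 7.1, 7.2, 7.4 and 7.5. The row with the third largest SD has no symbol in the annotation used here, and it too was low only in clone 7.3, at 7.43 against 10.94 to 11.56.

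The steadiest genes were nearly identical across the clones. Among named genes with a mean above 10, the 5 smallest SDs belonged to Rpl4, Ttc33, Eif3b, Cox8a and Ndufa4. Rpl4, a protein of the large ribosomal subunit, lay at 14.77 to 14.79, close to the top of the scale, where values have little room to differ. Ndufa4, a subunit of the respiratory chain, lay at 12.88 to 12.94. These genes were picked for their small SDs, so their ranges of 0.02 to 0.06 do not measure how well the 5 arrays agreed.

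The clones were unequally alike. Clones 7.4 and 7.5 were the closest pair, with a correlation across the 16492 gene rows of r = 0.997, a median absolute difference of 0.0782 over the genes above the cutoff, and only 2 genes at least 1 apart. Clones 7.1 and 7.3 were the farthest apart, with r = 0.981 and 205 genes at least 1 apart. The other 8 pairs had 27 to 134 such genes, and the fewest that clone 7.3 had with any clone were 64, with clone 7.2. Genes are not independent replicates, so these correlations carry no p-value.

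A principal component analysis of the 8197 gene-centred profiles gave the same layout. The first component held 62.8% of the variance and ran from clone 7.3 (score 21.7) over clone 7.2 (3.39) to clones 7.5 (-6.19), 7.4 (-7.12) and 7.1 (-11.8). Its ends were Acod1, Il1rn, Slc6a4 and Trem3 on the side of clone 7.3 and Selenbp1, Ctsl, Tmem176b and Fcgr3 on the other. The second component, with 25.5%, set clones 7.2 (9.83) and 7.1 (7.92) against clones 7.5 (-9.06) and 7.4 (-6.69). It was led by Car2, Ctsl and Adm on one side and by Tmem176b, Ms4a6b and Cd48 on the other.

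The distance of each clone from the rest was also counted gene by gene, as its value minus the median of the other 4. Clone 7.3 lay at least 1 above that median for 40 genes (0.488% of 8197) and at least 1 below it for 69 (0.842%). Clone 7.1 did so for 24 (0.293%) and 6 (0.0732%), clone 7.2 for 5 (0.061%) and 23 (0.281%), clone 7.4 for 12 (0.146%) and 2 (0.0244%), and clone 7.5 for 9 (0.11%) and 3 (0.0366%). Since clones 7.4 and 7.5 were alike, each lay within the other 4 for its partner, and the total of 14 for clone 7.4 was 38 without clone 7.5 and the total of 12 for clone 7.5 was 27 without clone 7.4. Without clone 7.2 they were 6 and 2, and the 30 of clone 7.1 were 48 without clone 7.4. Among the 267 genes with a range of at least 1, clone 7.3 was the highest for 95 and the lowest for 138, and clone 7.1 the highest for 93 and the lowest for 72. Over all 8197 genes clone 7.3 was the highest for 31.5% and the lowest for 29.9%, and clone 7.1 for 20.4% and 25.4%. The 95 and the 72 lay near these shares. Of the control differences between 3' and 5' end, that of the transferrin receptor was highest in clone 7.3. Those of beta-actin, Gapdh and pyruvate carboxylase were not. Their part in these counts was not tested.

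To see which genes varied together, each of the 267 was assigned to the clones above the widest gap in its 5 sorted values. Of 30 possible divisions 16 occurred, and the 4 fullest held 227 genes (85.0%). Clone 7.3 stood alone at the top for 86 genes (32.2%), against 14.6% of all genes above the cutoff. It stood alone at the bottom for 79 (29.6%, against 13.2%). Clones 7.1, 7.4 and 7.5 lay together above 7.2 and 7.3 for 37 genes (13.9%, against 5.15%). Clone 7.1 lay alone above the others for 25 (9.36%, against 5.10%). The next divisions, with 7 genes each (2.62%), had clones 7.1 and 7.2 above the rest and clone 7.2 below the rest. Over all genes these 2 divisions held 3.44% and 2.12%, so both were near background.

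**Figure D2:**
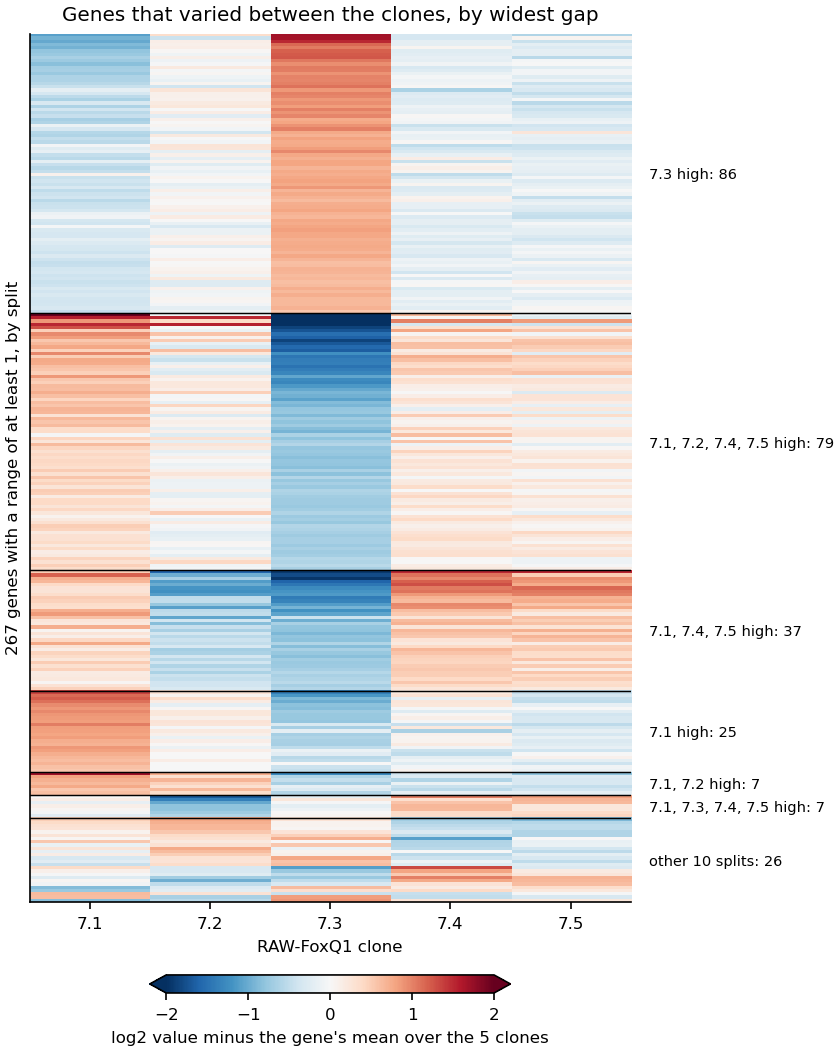
Log2 value minus the gene's mean over the 5 clones (colour, cut at 2 in either direction) for the 267 genes with a range of at least 1 (rows), by clone (columns); black lines separate the 6 fullest divisions, labelled with the clones above the widest gap and the number of genes. The blocks of 86, 79, 37 and 25 genes make up most of the picture, and clone 7.3 is the extreme column of the blocks of 86 and 79.

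The genes that were high in clone 7.3 alone included many receptors by which macrophages sense microbes. Of 26 listed surface receptors of innate immunity above the cutoff, 9 (34.6%) had a range of at least 1, against 3.26% of all genes, and clone 7.3 had the highest value for 17 of the 26, against 31.5% of all genes above the cutoff. Without clone 7.3 only 1 of them reached it. Clec4d, a C-type lectin that binds fungal and mycobacterial glycolipids, had 13.01 in clone 7.3, against 11.04, 11.70, 11.57 and 11.59 in clones 7.1, 7.2, 7.4 and 7.5. Its relative Clec4e, which encodes Mincle, had 9.79 in clone 7.3, against 8.69 to 9.0 in the other 4. In both genes clone 7.3 was the highest by more than the other 4 clones differed among themselves.

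Scavenger and TREM family receptors followed the same order. Msr1, the class A scavenger receptor that takes up modified lipoproteins, had 11.31 in clone 7.3, against 9.33, 10.13, 9.87 and 9.93 in clones 7.1, 7.2, 7.4 and 7.5. Trem3, which signals through an adaptor shared with other activating receptors, had 10.89 in clone 7.3, against 9.01, 9.77, 9.48 and 9.12. Clec5a, another receptor that uses such an adaptor, had 11.06 in clone 7.3, against 9.40, 10.19, 10.02 and 10.10. For all 3 the second highest clone was 7.2 and the lowest was 7.1, while clones 7.4 and 7.5 changed places between the genes. Cd14, the co-receptor for lipopolysaccharide, also had its highest value in clone 7.3, 13.87, and its lowest in clone 7.1, 12.64, but there clone 7.4 was second, at 13.31. Tlr4 and Tlr2 had ranges of 0.73 and 0.80, below the threshold of 1. Clone 7.3 was highest for both of these Toll-like receptors.

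Not every receptor was high in clone 7.3. Fcgr3, a low-affinity receptor for immunoglobulin G, had 6.98 in clone 7.3 and 7.81 in clone 7.2, against 9.95, 9.87 and 9.28 in clones 7.1, 7.4 and 7.5. Cd36, a class B scavenger receptor for oxidized lipoproteins and fatty acids, had 6.85 in clone 7.3, against 9.25, 9.22, 8.95 and 9.28 in the other 4. Adgre1, which encodes the macrophage surface marker F4/80, had 7.14 in clone 7.3 and 8.40 in clone 7.2, against 9.48, 9.28 and 9.21 in clones 7.1, 7.4 and 7.5. The macrophage identity list thus had 8 of 28 members (28.6%) with a range of at least 1, against 3.26% of all genes. It shares Cd36, Msr1 and Clec4d, among others, with the list of surface receptors, so the counts of these lists overlap. Of these 8, Cd36, Adgre1 and Mpeg1 were lowest in clone 7.3 and Clec4d, Clec4e, Cd14 and Msr1 highest there. The eighth, Slc11a1, a metal transporter of the phagosome, had 9.35 in clone 7.2, against 9.71, 9.99, 10.31 and 10.38 in clones 7.1, 7.3, 7.4 and 7.5, and without clone 7.3 the count was 3.

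Of 10 listed cytokines and mediators above the cutoff, 4 were highest in clone 7.3 and 3 were lowest there. Over all genes above the cutoff these shares were 31.5% and 29.9%, so the list was near background in this clone. Clone 7.1 was also the highest for 4 of the 10, against 20.4% of all genes. Acod1, which is outside the list and makes itaconate in activated macrophages, had 10.63 in clone 7.3. The values in clones 7.1, 7.2, 7.4 and 7.5 were 7.86, 9.29, 8.61 and 8.34. Il1rn, the interleukin-1 receptor antagonist, had 10.45, against 7.91, 9.08, 8.77 and 8.49. Tnf, the tumour necrosis factor gene, had 10.09 in clone 7.3, against 9.10, 9.37, 8.85 and 9.07 in clones 7.1, 7.2, 7.4 and 7.5. Nfkbia, also outside the list, encodes an inhibitor of NF-kappaB and is itself a target of it. It shared the pattern with 11.93 in clone 7.3, against 10.90, 11.34, 10.83 and 10.93. Ptgs2, the inducible cyclooxygenase, had 8.49 against 7.59 to 7.80 with a range of 0.90. These cells had received no stimulus.

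Of the 10 listed cytokines and mediators above the cutoff 3 (30%) had a range of at least 1, against 3.26% of all genes. They were Il1rn, Tnf and Alox5, and Alox5 ran the other way. Alox5, the 5-lipoxygenase of leukotriene synthesis, had 7.30 in clone 7.3, against 8.97, 8.25, 7.75 and 7.81 in clones 7.1, 7.2, 7.4 and 7.5. Chemokines were mixed as well, with 2 of 7 (28.6%), of which 1 was left without clone 7.3 and 0 with a mean above 8.5. Cxcl14 had 8.70 in clone 7.3, against 7.37, 7.57, 7.88 and 8.18, whereas Cxcl16, a membrane-bound chemokine, had 7.35 in clone 7.3 and 7.59 in clone 7.2, against 8.26, 8.68 and 8.82 in clones 7.1, 7.4 and 7.5. Ccl2, which encodes MCP-1, had 8.33 in clone 7.3 and 7.47 to 7.69 in the other 4.

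Other genes of this division came from outside the immune lists. Slc6a4, the serotonin transporter, had 9.98 in clone 7.3, against 7.38, 7.89, 7.98 and 8.37 in clones 7.1, 7.2, 7.4 and 7.5. Igf1, insulin-like growth factor 1, had 11.25 in clone 7.3 and 9.26 in clone 7.1, with the other 3 at 9.94 to 10.34. Targets of the tumour suppressor p53 appeared too: Mdm2, its ubiquitin ligase, had 9.88 in clone 7.3, against 8.55, 8.98, 8.61 and 8.38, and Phlda3, an inhibitor of AKT signalling, had 9.22, against 7.67, 7.72, 8.14 and 7.87. Ccng1, cyclin G1, had 10.86 in clone 7.3, against 9.58 to 10.05 elsewhere. The p53 list had 5 of 14 members (35.7%) with a range of at least 1, against 3.26% of all genes. But its other 2, Btg2 and Ddit4, were highest in clone 7.1, and Cdkn1a, which encodes the cell cycle inhibitor p21, had a range of 0.69. Without clone 7.3 the count of 5 was 1, and without clone 7.1 it was 2.

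**Figure D3:**
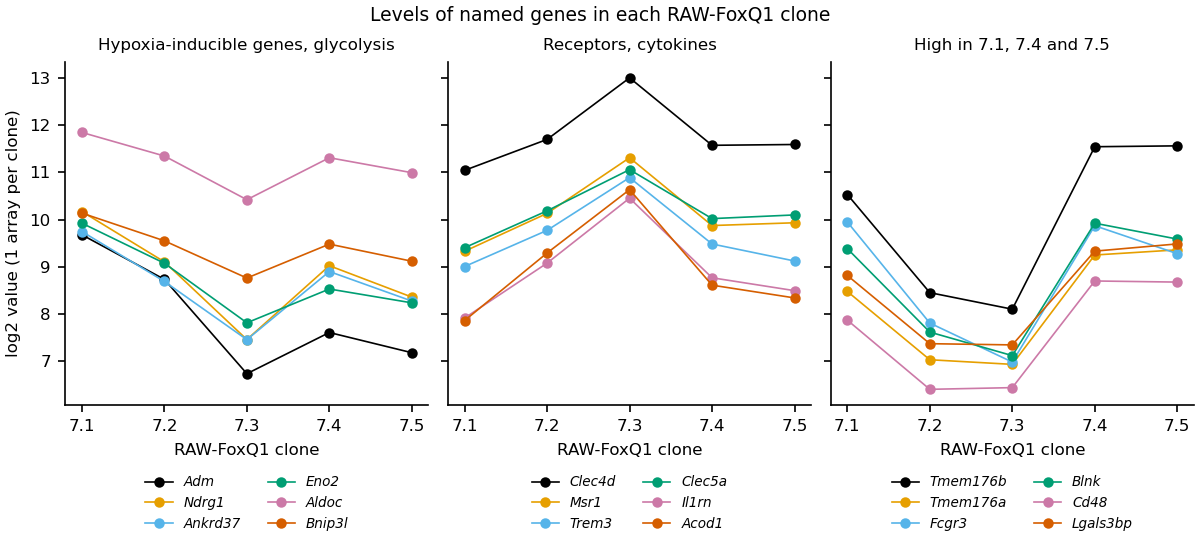
Log2 values (y axis, 1 array per clone) of 18 genes in clones 7.1 to 7.5 (x axis), in 3 panels: hypoxia-inducible and glycolytic genes, receptors and cytokines, and genes high in clones 7.1, 7.4 and 7.5; lines only join the points of a gene. In the left panel clone 7.1 is the highest and clone 7.3 the lowest for each gene, in the middle panel clone 7.3 is the highest, and in the right panel clones 7.2 and 7.3 lie below the other 3.

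The 79 genes that were low in clone 7.3 alone included Selenbp1, Ctsl, Car2, Cd36 and Adgre1, and also Pkp2, which encodes the junction protein plakophilin 2, with 6.32 in clone 7.3, against 9.44, 8.17, 8.48 and 8.46 in clones 7.1, 7.2, 7.4 and 7.5. Ezr, which encodes ezrin, a linker of membrane and actin, had 7.46, against 9.92, 9.17, 9.46 and 9.40. Tpm1, tropomyosin 1, had 8.47, against 9.94, 9.81, 9.49 and 9.23. Evl, by contrast, was lowest in clone 7.2, at 8.36 against 9.03 to 9.46. Ezr, Tpm1 and Evl were the only 3 of 41 actin cytoskeleton genes (7.32%) with a range of at least 1. The share of all genes was 3.26%, and without clone 7.3 only 1 of the 3 was left.

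Genes of the lysosome and of antigen presentation were among them in part. Of 14 lysosomal proteases and cystatins above the cutoff 3 (21.4%) had a range of at least 1, against 3.26% of all genes. They were Ctsl, Ctsc and Cst7, and each followed a different division. Without clone 7.2 the count was 1, and of 30 lysosomal hydrolases and membrane proteins 1 (3.33%), Gpnmb, had such a range. Ctsc, cathepsin C, had 8.80 in clone 7.2, against 9.72, 9.41, 10.27 and 9.83 in clones 7.1, 7.3, 7.4 and 7.5, and Cst7, which encodes the inhibitor cystatin F, was highest there with 10.05, against 9.55, 9.16, 8.74 and 8.91. The abundant Cst3, cystatin C, had 13.30 in clone 7.3 and 14.04 to 14.14 in the other 4. Ctsb and Ctsd, the genes of cathepsins B and D, had ranges of 0.45 each. Neither reached the threshold that Ctsl passed.

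Of 11 genes of MHC class I presentation above the cutoff 2 (18.2%) reached a range of 1, against 3.26% of all genes. Without clone 7.3 the count was 0, and without clone 7.1 it was 1. H2-M3, a class Ib molecule that presents formylated peptides, had 7.31 in clone 7.3, against 8.5, 8.02, 8.31 and 8.31 in clones 7.1, 7.2, 7.4 and 7.5. Psmb9, an immunoproteasome subunit, had 8.24, against 9.37, 8.88, 9.18 and 9.30. B2m, the light chain of class I molecules, was lowest in clone 7.3 as well, at 12.28 against 12.62 to 12.99, and clone 7.3 was the lowest for 7 of the 11 genes, against 29.9% of all genes above the cutoff.

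Osteoclast genes did not move as a block. Of 12 above the cutoff 3 (25%) had a range of at least 1, against 3.26% of all genes, and 1 without clone 7.3. Like Car2, Nfatc1, the transcription factor that directs osteoclast formation, was lowest in clone 7.3. It had 9.13 there, against 9.95, 10.23, 9.75 and 9.56 in clones 7.1, 7.2, 7.4 and 7.5. Jdp2, an AP-1 repressor, had the opposite extreme, with 10.44 in clone 7.3 and 9.31 in clone 7.4, and Tnfrsf11a, the receptor RANK, was highest in clone 7.3 at 9.24, against 8.32 to 8.79. Acp5, tartrate-resistant acid phosphatase, had 7.53 and 7.56 in clones 7.3 and 7.4, against 8.38, 8.49 and 8.14 in clones 7.1, 7.2 and 7.5.

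Clone 7.1 was set apart by genes that cells switch on when oxygen is short. In that response the hypoxia-inducible factors bind a short core motif, usually written RCGTG, in promoters and enhancers of their targets, which supply glycolytic enzymes, a vasodilator peptide, regulators of mitochondria and the oxygen sensors themselves. Of 23 listed genes above the cutoff 10 (43.5%) had a range of at least 1, against 3.26% of all genes. Without clone 7.1 the count was 5. Clone 7.1 was the highest for 21 of the 23, the other 2, Hmox1 and Slc2a3, being highest in clone 7.3. Over the 8197 genes clone 7.1 was the highest for 20.4%. The list was written with earlier results of these data known, and its first member by range, Selenbp1, is not a classical hypoxia gene.

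The promoters of these genes were read from the RefSeq table of the mouse build GRCm38.p6, which held 18 of the 23 genes, and the 250 bases before each start were searched for ACGTG on both strands (the reverse complement is CACGT, and a palindromic CACGTG counts on both). It occurred in 9 of the 18 (50%), in 23.8% of the 6454 matched array genes above the cutoff and in 16.6% of the 27025 genes of the table. Among the 10 genes with a range of at least 1, all highest in clone 7.1, 7 had a promoter in the table and 6 of these held the motif. GCGTG, the other form of RCGTG, was not part of the search. A match is a string of letters and not evidence of binding. The list was drawn up as hypoxia-inducible genes, so a share above that of all genes does not bear on the clones. The 10 genes were also chosen for their values. The 6 stretches of 45 bases that hold the match nearest to the start are printed on the strand of the gene, 5′ to 3′. The match is in capitals. Clone 7.1 was the highest for these 6 genes, but the widest gap of Selenbp1 set clone 7.3 apart, at the bottom.
Selenbp1 (chr3:94932859-94932903, plus strand): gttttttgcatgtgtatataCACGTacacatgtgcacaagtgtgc
Ankrd37 (chr8:45999851-45999895, minus strand): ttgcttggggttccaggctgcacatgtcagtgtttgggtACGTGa
Ddit4 (chr10:59951933-59951977, minus strand): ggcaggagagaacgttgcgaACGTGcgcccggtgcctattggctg
Fam162a (chr16:36071618-36071662, minus strand): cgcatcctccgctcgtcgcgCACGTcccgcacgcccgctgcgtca
Ero1a (chr14:45318611-45318655, minus strand): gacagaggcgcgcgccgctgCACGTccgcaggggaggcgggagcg
Egln1 (chr8:124949298-124949342, minus strand): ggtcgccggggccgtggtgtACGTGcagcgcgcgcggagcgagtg
The first base of the match lay 204 bases before the annotated start in Selenbp1, 6 in Ankrd37, 187 in Ddit4, 81 in Fam162a, 63 in Ero1a and 68 in Egln1. The window of Adm held no match, which says only that these letters are not in these 250 bases.

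Adm, the gene of the vasodilator adrenomedullin, had 9.68 in clone 7.1, against 8.73, 6.73, 7.61 and 7.18 in clones 7.2, 7.3, 7.4 and 7.5, a 7.70-fold range. Ndrg1, a stress-responsive gene, had 10.17 in clone 7.1, against 9.10, 7.46, 9.02 and 8.36. Ankrd37, a direct target of hypoxia-inducible factor 1, had 9.75 in clone 7.1, against 8.69, 7.46, 8.90 and 8.27. In these 3 genes clone 7.1 was the highest and clone 7.3 the lowest, with the other 3 between them.

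The mitochondrial and oxygen-sensing members repeated it at smaller ranges. Bnip3l, which marks mitochondria for removal, had 10.14 in clone 7.1, against 9.55, 8.76, 9.48 and 9.12 in clones 7.2, 7.3, 7.4 and 7.5. Fam162a had 12.86 in clone 7.1, against 12.17, 11.41, 12.15 and 11.73. Egln1, the prolyl hydroxylase that senses oxygen, had 9.27, against 8.72, 8.26, 8.80 and 8.62, a range just past the threshold. Bhlhe40, a transcriptional repressor of the circadian clock, was lowest in clone 7.3 as well, at 7.93 against 8.85 to 9.49. Ddit4, an inhibitor of mTOR complex 1, and Ero1a, an oxidase of the endoplasmic reticulum, differed in that clone 7.5, and not 7.3, was the lowest: Ddit4 had 9.61 in clone 7.1, against 8.82, 8.28, 8.12 and 8.06.

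The enzymes of glycolysis were ordered in the same way, though few reached the threshold. Clone 7.1 had the highest value for all 13 listed genes above the cutoff and clone 7.3 the lowest for 11. Over all genes above the cutoff these shares were 20.4% and 29.9%. Only 2 of the 13 (15.4%) had a range of at least 1, against 3.26% of all genes. Without clone 7.1 or without clone 7.3 the count was 1. Eno2, an enolase, had 9.92 in clone 7.1, against 9.08, 7.81, 8.53 and 8.24 in clones 7.2, 7.3, 7.4 and 7.5, and Aldoc, an aldolase, had 11.85, against 11.35, 10.42, 11.31 and 10.99. Slc2a1, the glucose transporter GLUT1, had 11.38 in clone 7.1, against 10.66, 10.40, 10.80 and 10.60, and Pfkm, a phosphofructokinase, had a range of 0.95. Pkm, the pyruvate kinase, was nearly level at 14.18 to 14.27. Clone 7.1 lay 0.37 above the median of the other 4 at the median glycolysis gene and 0.55 above it at the median hypoxia gene, against a shift of -0.02 over all genes above the cutoff.

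Further genes that stood alone in clone 7.1 were Ak4, a mitochondrial adenylate kinase, and some of the early response genes. Ak4 had 10.17 in clone 7.1, against 9.23, 8.06, 9.30 and 8.55 in clones 7.2, 7.3, 7.4 and 7.5. Of 21 immediate early and AP-1 genes above the cutoff 7 (33.3%) had a range of at least 1, against 3.26% of all genes. Without clone 7.1 the count was 4. Clone 7.1 was the highest for 11 of the 21, against 20.4% of all genes above the cutoff. Clone 7.4 was the lowest for 9, against 13.8%. Egr2 and Atf3 followed another division, described below. Btg2, an antiproliferative gene, had 10.40 in clone 7.1, against 9.56, 8.68, 9.49 and 9.52, and Klf2, a Kruppel-like factor that restrains macrophage activation, had 10.41, against 9.77, 9.41, 8.93 and 9.40. Fos, with 12.33 to 12.91, had a range of 0.58 and Egr1 one of 0.88.

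The feedback genes of the ERK pathway divided between these clones. Of 5 above the cutoff 3 (60%) had a range of at least 1, against 3.26% of all genes. The list is very short, and the count falls to 1 gene without clone 7.1 or without clone 7.4. Ier3 had 11.30 in clone 7.1, against 10.61, 10.35, 10.03 and 10.08 in clones 7.2, 7.3, 7.4 and 7.5. Dusp5, a nuclear phosphatase that inactivates ERK, had 9.09 in clone 7.3, against 8.45, 8.31, 7.86 and 8.10, and Dusp2, also a phosphatase, had 8.37 in clone 7.4, against 9.53, 9.18, 8.99 and 8.82 in clones 7.1, 7.2, 7.3 and 7.5. Dusp6, which removes phosphate from ERK in the cytoplasm, had 9.39 in clone 7.3 and 8.65 to 8.77 in the other 4.

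The division of clones 7.1, 7.4 and 7.5 from clones 7.2 and 7.3 held 37 genes of varied function. Tmem176b, a membrane protein linked to the regulation of the inflammasome and of dendritic cells, had 8.45 and 8.10 in clones 7.2 and 7.3, against 10.53, 11.54 and 11.56 in clones 7.1, 7.4 and 7.5. Its neighbour on chromosome 6, Tmem176a, had 7.03 and 6.93, against 8.48, 9.25 and 9.36. Blnk, an adaptor of immune receptor signalling, had 7.62 and 7.12 in clones 7.2 and 7.3, against 9.38, 9.92 and 9.59. The gap between the 2 sets of clones exceeded 1 for each of the 3 genes, and within the upper set clone 7.1 was the lowest for all 3 genes.

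Cd48, an adhesion and signalling receptor of leukocytes, had 6.40 and 6.44 in clones 7.2 and 7.3, against 7.87, 8.70 and 8.68 in clones 7.1, 7.4 and 7.5. Lgals3bp, a secreted glycoprotein that binds galectin 3, had 7.37 and 7.34, against 8.82, 9.33 and 9.48. Egr2 and Atf3, transcription factors of the early response, shared the division, with Atf3 at 9.01 and 8.90 in clones 7.2 and 7.3, against 10.10, 10.22 and 10.01. The 18S control rows moved partly along, being 11.3 and 11.7 in clones 7.2 and 7.3 and 11.9, 12.4 and 12.8 in clones 7.1, 7.4 and 7.5, and their part in the result was not tested.

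Clone 7.2 was singled out by few genes. Ms4a6b, a tetraspan protein of macrophages, had 7.33 in clone 7.2, against 9.01, 8.81, 10.03 and 9.85 in clones 7.1, 7.3, 7.4 and 7.5, and its paralogs Ms4a6d and Ms4a6c were also lowest there, at 7.79 and 7.49. Members of this family lie side by side on chromosome 19 and resemble one another, so that signal may be shared between their probes. H2bc4, a histone gene with near-identical copies, had 9.88 in clone 7.2, against 11.36, 11.46, 11.57 and 11.92, and for the same reason its value is uncertain as to the copy. Ndrg4 and Txnip, the inhibitor of thioredoxin, were high in clones 7.1 and 7.2 together. Txnip had 11.55 and 11.09 in those clones, against 10.16, 10.49 and 10.47 in clones 7.3, 7.4 and 7.5.

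Clones 7.4 and 7.5 differed from the others mostly as a pair. Pla1a, a phospholipase, had 9.42 and 9.21 in clones 7.4 and 7.5, against 10.60, 10.90 and 10.40 in clones 7.1, 7.2 and 7.3, and Rcan1, an inhibitor of calcineurin, had 8.36 and 8.26, against 9.13, 9.24 and 9.35. The 2 genes that lay at least 1 apart between them were Bdh1 and Npl, which were picked out after their values were seen. Bdh1, an enzyme of ketone body metabolism, had 9.72 in clone 7.4, against 8.80, 8.09, 7.31 and 8.12 in clones 7.1, 7.2, 7.3 and 7.5, and Npl, a lyase of sialic acid breakdown, had 7.90 in clone 7.4, against 9.04, 9.32, 9.72 and 9.0.

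Lists of cell division, respiration and cholesterol synthesis were near the background. None of 50 mitosis genes, 48 respiratory chain genes and 17 cholesterol genes above the cutoff had a range of at least 1, and 1 of 45 replication genes (2.22%) did, against 3.26% of all genes. That gene, Tk1, thymidine kinase 1, had 10.17 in clone 7.3, against 11.03, 10.61, 11.11 and 11.24 in clones 7.1, 7.2, 7.4 and 7.5. Birc5, which encodes survivin, had the widest range of the mitosis list, 0.68, with 11.54 in both clones 7.4 and 7.5, against 11.15, 10.95 and 10.87 in clones 7.1, 7.2 and 7.3. Clone 7.5 was the highest for 24 of the 50 mitosis genes and clone 7.3 the lowest for 30, against 20.1% and 29.9% of all genes above the cutoff, at median ranges of 0.28 for mitosis, 0.31 for replication and 0.22 for respiratory chain genes, beside 0.28 for all genes. The order of the clones in these lists thus rested on small differences.

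**Figure D4:**
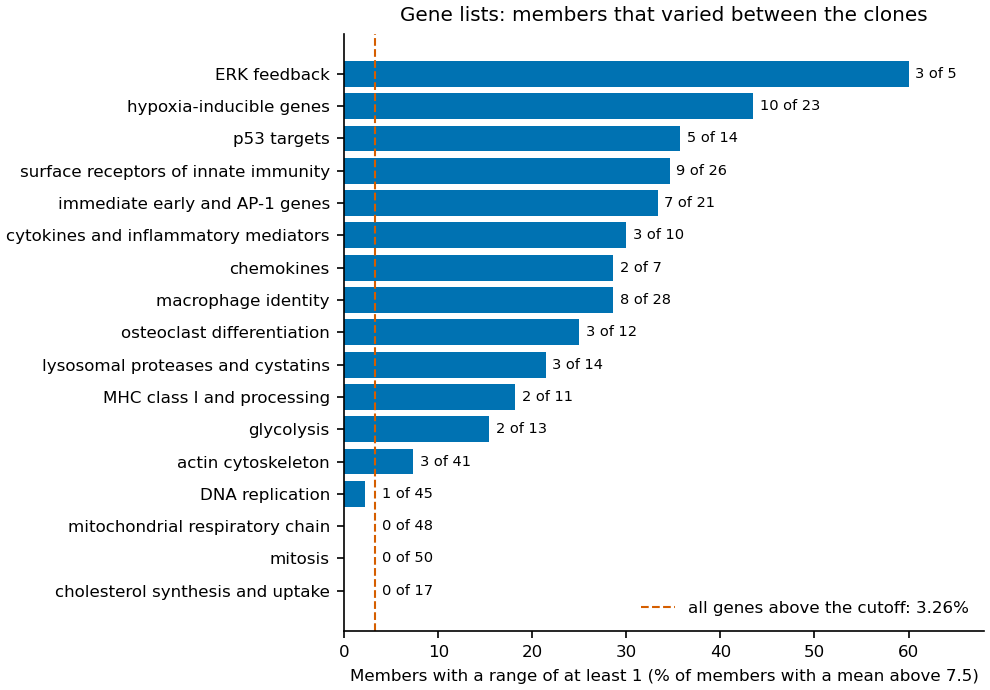
Share of the members of 17 gene lists with a range of at least 1 among the 5 clones (x axis, percent of members with a mean above 7.5), with counts beside the bars and the share of all genes above the cutoff, 3.26%, as a dashed line. Short lists such as ERK feedback rest on 3 of 5 genes, while hypoxia-inducible genes stand at 10 of 23 and the lists of mitosis, respiratory chain and cholesterol at 0. Some lists share members.

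Neighbouring genes also shifted together, at sizes too small for the threshold of 1. For this, 7756 named genes above the cutoff were ordered along the chromosomes by RefSeq and cut into 302 windows of 25 genes, with any remainder in the last window of a chromosome, and the median shift of each clone from the other 4 was taken in each window. The span between the highest and the lowest clone had a median of 0.107 over the windows and was at least 0.3 in 12 of them, all on chromosomes 1, 4 and 11. The windows and the threshold of 0.3 were chosen after the chromosome medians were seen. Since a window pools 25 genes, its median can differ between clones where no single gene stands out.

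On chromosome 4 a single window, from Ccnc to Aco1, had a span of 0.66. Clones 7.2 and 7.3 lay 0.32 and 0.33 above the other 4 there, clones 7.4 and 7.5 lay 0.33 and 0.29 below, and clone 7.1 was between at -0.01. In 20 of the 25 genes (80%) clones 7.2 and 7.3 were the 2 highest, against 22.2% of all 7756 genes, although none of the 25 had a range of at least 1. Map3k7, which encodes the kinase TAK1 of Toll-like receptor signalling, had 8.87 and 9.31 in clones 7.2 and 7.3, against 8.35, 8.49 and 8.45 in clones 7.1, 7.4 and 7.5. Rars2, a mitochondrial transfer RNA synthetase, had 10.21 and 10.30, against 9.73, 9.62 and 9.54, and both were picked out after their values were seen. The windows on either side had no such span.

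Chromosome 1 ran the other way and along nearly its whole length. Of its 431 placed genes 26 (6.03%) had a range of at least 1, against 3.22% of all placed genes. Clones 7.2 and 7.3 were the 2 lowest in 43.9%, against 18.7% of all placed genes. At the median gene clone 7.2 lay 0.13 and clone 7.3 lay 0.10 below the other 4, clones 7.4 and 7.5 lay 0.11 and 0.09 above, and clone 7.1 was at -0.01. The span of these medians, 0.235, was 0.0801 with a mean above 6.5 and 0.0611 with no cutoff. In 14 of its 17 windows clones 7.2 and 7.3 were both below and clones 7.4 and 7.5 both above, as in 15.9% of all 302 windows. The widest window, from Fam135a to Unc50, had a span of 0.40, and a run of 5 windows with 125 genes, from Cops7b to Arpc5, had a span of 0.33. Of the 34 placed genes of the division of clones 7.1, 7.4 and 7.5, 8 lay on chromosome 1, among them Fcgr3, Cd48 and Atf3, where 26 of all 250 named genes with a range of at least 1 and 431 of the 7756 placed genes lay.

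On chromosome 11 the shift was confined to the last 5 windows in the order of RefSeq, from Fmnl1 to Metrnl, among the 27 of that chromosome. Over these 149 genes clones 7.2 and 7.3 lay 0.17 and 0.22 below, clones 7.4 and 7.5 lay 0.18 and 0.17 above, and clone 7.1 was at -0.01. Clones 7.2 and 7.3 were the 2 lowest in 87 of the 149 (58.4%), against 18.7% of all placed genes. Lgals3bp, Tk1 and Birc5, described above, lie in this stretch, as do Slc9a3r1 and Cd300c2. A range of at least 1 was reached by 6 of its genes (4.03%), near the 3.22% of all placed genes. Clone 7.2 alone was the lowest in 7 of the 11 windows of chromosome 12, against 10.6% of all windows, with a median of -0.06 over its 284 genes.

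**Figure D5:**
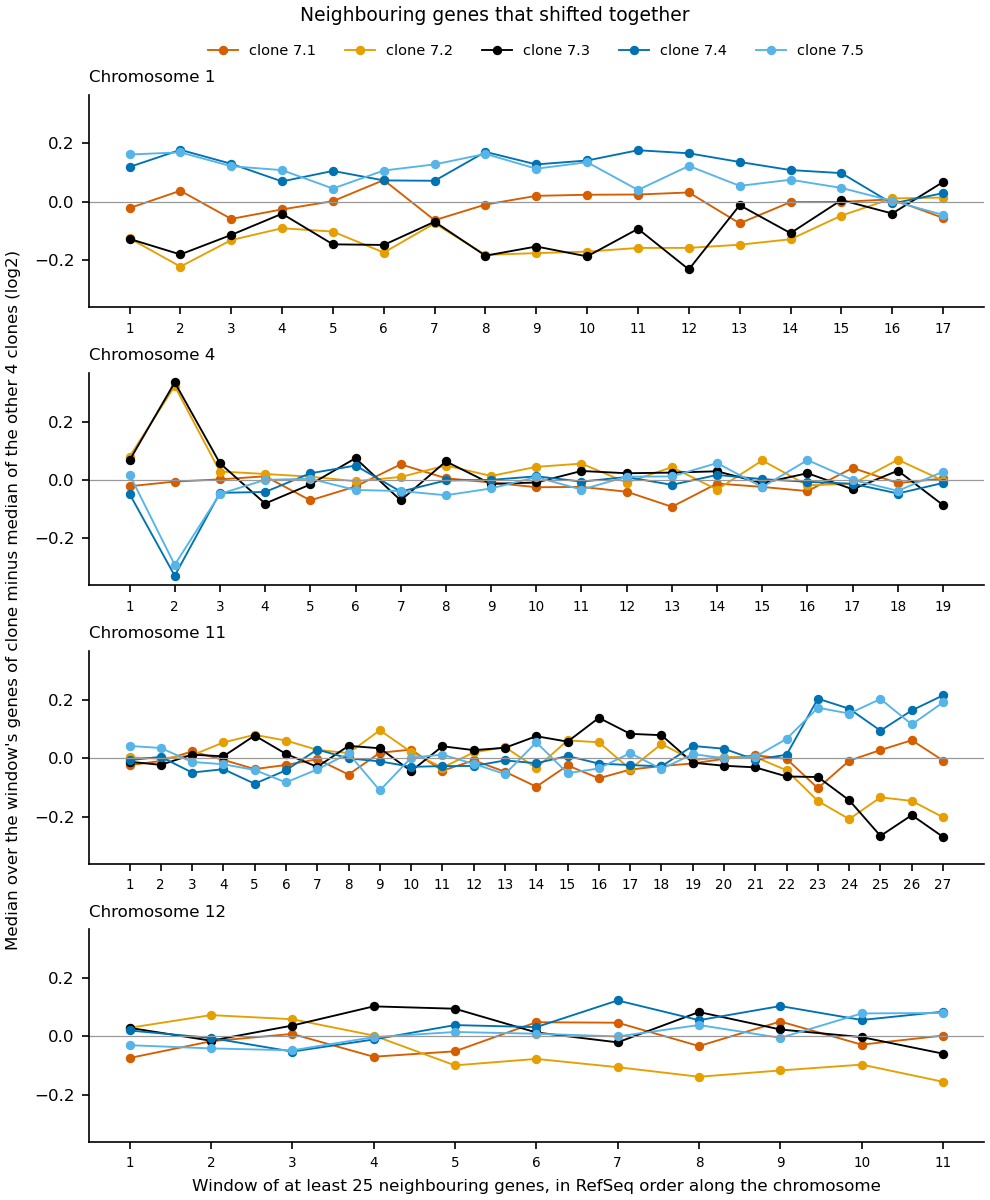
Median shift of each clone from the median of the other 4 clones (y axis, log2) in windows of at least 25 neighbouring genes, numbered in RefSeq order (x axis), on chromosomes 1, 4, 11 and 12. Clones 7.2 and 7.3 run below clones 7.4 and 7.5 along most of chromosome 1 and at the end of chromosome 11 and above them in window 2 of chromosome 4, with clone 7.1 near 0.

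Genes at the edges of the thresholds show what the cutoffs left out. Wdr35 and Ephb3 were the last named genes inside the mean cutoff and Fer and Gfod2 the first outside it, all with a mean of 7.50 and ranges of 0.15 to 0.31. St3gal6 and Fam102b were just inside the range threshold, and Grtp1 and Gm2a just outside it, all with a range of 1.00 after rounding. Gm2a, the activator of ganglioside breakdown, had 11.56 and 11.54 in clones 7.1 and 7.2, against 10.98, 10.75 and 10.56 in clones 7.3, 7.4 and 7.5.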

How the data were processed

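Total RNA of each clone had been hybridised by the authors to the Affymetrix GeneChip Mouse Genome 430 2.0 array. The authors read the arrays with a custom chip definition, version 12, with 1 row per Entrez gene, and normalized them by quantile normalization. RMA is named, with its version not given in the sources used here, in the submitters' notes. Values were deposited on the log2 scale, and the sorted values of all 9 columns are identical, so a shift of a whole array cannot be seen. The number of arrays, 1 per clone, limits the precision. No vector clone was used here.

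Rows were named through RefSeq (GRCm38.p6), which gave a symbol to 15270 of 16492 rows, and 64 control rows were left out. SD, range, deviation from the median of the other 4 clones, widest gap, principal components and windows of neighbouring genes were computed with Python 3.11.15, numpy 2.4.6 and pandas 2.3.3, and drawn with matplotlib 3.10.9. The scripts were checked on simulated data. No p-value was computed.

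The members, thresholds and 35 gene lists were chosen with earlier results of these data known, and the 17 lists described were picked with the values at hand. Some lists share members, such as Btg2 on the immediate early and p53 lists, so their counts are not independent. Genes were named by rule: the genes the study names, the 20 largest SDs, the 5 highest and lowest deviations of each clone, up to 4 genes by range of each list described and of each of the 6 fullest divisions, the 5 smallest SDs with a mean above 10, and the 2 genes on each side of the thresholds. Other genes named were chosen after their values were seen. Alternatives were mean cutoffs of 6.5, 8.5 and none, range thresholds of 0.5 and 2, median centring, renewed quantile normalization, scaling by SD, windows of 50 genes and each clone left out.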

Additional observations from a re-analysis of the deposited data

Results flagged for a closer look

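In 8 of the 110 named genes 1 clone stood apart from a tight cluster of the other 4, so that its gap to the nearest clone, as a share of the gene's whole range, passed Dixon's 95% value for 5 samples. Chance flags about 1 in 20 such groups, and of all 8197 genes above the cutoff 367 (4.48%) passed. Most of the 110 were named for a wide spread or an outlying clone in these same values. Their count of 8 therefore cannot be set against that rate. In 6 of the 8 genes the clone was 7.3. It was the highest for Dusp6, a phosphatase of ERK (share 0.8414), for Ptgs2, the inducible cyclooxygenase (0.7714), and for Ccl2, the chemokine MCP-1 (0.7475). It was the lowest for Ndufb3, a subunit of respiratory complex I (0.8811), for Cst3, cystatin C (0.8757), and for Cd36, the scavenger receptor (0.8651). Ndufb3 had 10.85 in clone 7.3, against 11.32, 11.26, 11.30 and 11.28 in clones 7.1, 7.2, 7.4 and 7.5. In the other 2 genes clone 7.2 was the lowest: the chemokine gene Cxcl2 (0.8585), with 6.99 in clone 7.2 against 7.89, 7.89, 7.90 and 7.77 in clones 7.1, 7.3, 7.4 and 7.5, and the histone gene H2bc4 (0.7261).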

How the results depend on the processing

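Median centring and renewed quantile normalization moved none of the ranges of the 110 named genes beyond the spread allowed, whereas leaving out 1 clone at a time moved 77 of 550. Other thresholds moved the counts by their construction: 1459 genes had a range of at least 0.5 and 41 one of at least 2, and the fullest division then held 17 genes, those low in clone 7.3. With a mean above 8.5 the counts of genes at least 1 from the other clones were 18 for clone 7.2, 7 for clone 7.4 and 6 for clone 7.5. With no cutoff the median SD was 0.0731, and the span of the clones on chromosome 1, 0.235 in the text's setting, was 0.0611, or 0.0801 with a mean above 6.5. With windows of 50 genes 6 of 146 passed a span of 0.3, on chromosomes 1, 4 and 11, an alternative chosen after seeing the data. Leaving out 1 clone gave 93 (without clone 7.3) to 254 genes with a range of at least 1, a median SD of 0.0950 to 0.118, 57.3% to 73.0% of the variance on the first component, and 40 (without clone 7.3) to 117 genes in the fullest division. The counts of outlying genes then ran from 21 to 48 for clone 7.1, 19 to 42 for clone 7.2, 106 to 136 for clone 7.3, 6 to 38 for clone 7.4 and 2 to 27 for clone 7.5, the last 2 being highest when the other of that pair was left out. The span on chromosome 1 ran from 0.204 to 0.251. No paired analysis was possible because no groups were compared. Signal over background was not analysed here.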
